A study of Mus musculus with 12 samples.

Results

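The genes described here encode the tricarboxylic acid (TCA) cycle, the entry of pyruvate into it, the export of citrate from it, and Acod1, the enzyme that makes itaconate from its intermediate cis-aconitate. Members were found by gene symbol, and 35 of 35 were listed once among the 55487 genes of the deposited tables. Of these, 34 passed a filter on low counts and were tested among 15801 genes. Pdk4 did not pass. Poly-A RNA was sequenced from mouse macrophages differentiated in culture from bone marrow with M-CSF, the growth factor of that lineage. The 4 groups were Fes-/- cells given LPS, Fes-/- cells given PBS, Fes+/+ (wild-type) cells given LPS and wild-type cells given PBS, with 3 libraries each from 3 mice per genotype. LPS, a bacterial cell wall component sensed by TLR4, was used at 1 µg/mL for 4 hours. Fes encodes a cytoplasmic tyrosine kinase. The Fes-/- allele, the strain and the age of the mice are not given in the sources used here, and one passage of the labels calls the PBS cells untreated.

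The TCA cycle oxidises acetyl groups to carbon dioxide in the mitochondrial matrix and passes the electrons to the respiratory chain. Pyruvate enters through the pyruvate dehydrogenase (PDH) complex, which PDH kinases switch off and PDH phosphatases switch on. Macrophages activated by LPS are known to divert citrate and cis-aconitate out of the cycle into lipid synthesis and itaconate, and itaconate inhibits succinate dehydrogenase.

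Library totals ran between 61016254 and 101027166 counts. Fes RNA, the check of the labels, was at 16.0 to 16.8 TPM in Fes-/- LPS libraries against 72.2 to 82 TPM in wild-type LPS libraries, and at 63.8 to 66.7 TPM in Fes-/- PBS libraries against 154 to 174 TPM in wild-type PBS libraries. TPM is a level corrected for gene length and scaled to the same total in every library. The log2 fold change of Fes-/- against wild-type cells was -2.26 ± 0.074 (SE) under LPS and -1.38 ± 0.072 under PBS, so the RNA was reduced and not absent. The 8 macrophage markers were each at 1 TPM or more in every group. Of the dendritic, stromal, lymphocyte and erythroid markers, 0 reached 1 TPM in any group. The 9 neutrophil and precursor markers summed to 14.3 to 20.7 TPM in Fes-/- LPS, 23.6 to 30.9 TPM in Fes-/- PBS, 17.7 to 28 TPM in wild-type LPS and 33.4 to 45.4 TPM in wild-type PBS libraries, and their part in the results was not tested.

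The direction of many members under LPS differed with the scale chosen for the libraries. The 100 highest genes held 38.7% of all TPM in both LPS groups, against 31.4% in Fes-/- PBS and 32.9% in wild-type PBS libraries. TMM factors, which edgeR uses to centre the bulk of genes, were 0.728 to 0.731 in Fes-/- LPS against 1.38 to 1.4 in Fes-/- PBS libraries, and 0.707 to 0.737 in wild-type LPS against 1.35 to 1.38 in wild-type PBS libraries. With TMM the median log2 fold change of all 15801 genes was -0.083 in Fes-/- and -0.072 in wild-type cells. On library totals alone it was -1.01 in Fes-/- and -0.98 in wild-type cells. A fold change after TMM is therefore relative to the typical gene, and one on library totals is a share of all RNA sequenced. In bulk RNA, fewer cells of a type and less RNA per cell cannot be told apart.

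Relative to the typical gene, the response to LPS was split. In Fes-/- cells 14 of 34 members were called higher and 7 lower after TMM by edgeR's quasi-likelihood test at an adjusted p under 0.05, where 34.3% and 38.9% of all genes tested were called higher and lower. In wild-type cells 14 were called higher and 8 lower, where 34.6% and 38.8% of all genes were called. The 14 called higher were the same genes in both genotypes, and the 7 called lower in Fes-/- cells were also called lower in wild-type cells. The median member changed by 0.16 in Fes-/- and 0.14 in wild-type cells on the log2 scale, 0.24 and 0.21 above the median of all genes. It was 0.25 in Fes-/- cells without Fes-/- PBS library 3. In wild-type cells it was 0.1 without wild-type PBS library 2 or LPS library 1, and 0.033 without the filter on low counts. The excess over the median of all genes also depended on the setting. Without the filter it was 0.11 in Fes-/- and 0.064 in wild-type cells. On log2(TPM + 0.1) it was 0.18 and 0.15, and on log2(TPM + 1) it was reversed, at -0.087 and -0.1. In CPM after TMM, counts scaled to a common total with the TMM factors, the LPS libraries lay all above the PBS libraries for 17 members and all below for 8 in Fes-/- cells (36.3% and 41% of all genes), and for 16 and 7 in wild-type cells (35.4% and 39.8% of all genes). On library totals Acod1 and Pdk3 were the 2 members called higher, where 15.9% of all genes in Fes-/- and 16.3% in wild-type cells were called higher, and 30 members in Fes-/- and 29 in wild-type cells were called lower, where 70% and 68.5% of all genes were called lower. Of the 14 genes called higher after TMM, 2 stayed higher on library totals, 10 were called lower and 2, Dld and Me1, were not called. The members called lower after TMM, with RLE factors, on library totals and on log2(TPM + 1), in both genotypes, were Pdk2, Pdp1, Idh1, Aco1, Idh3g and Pdk1.

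**Figure D1:**
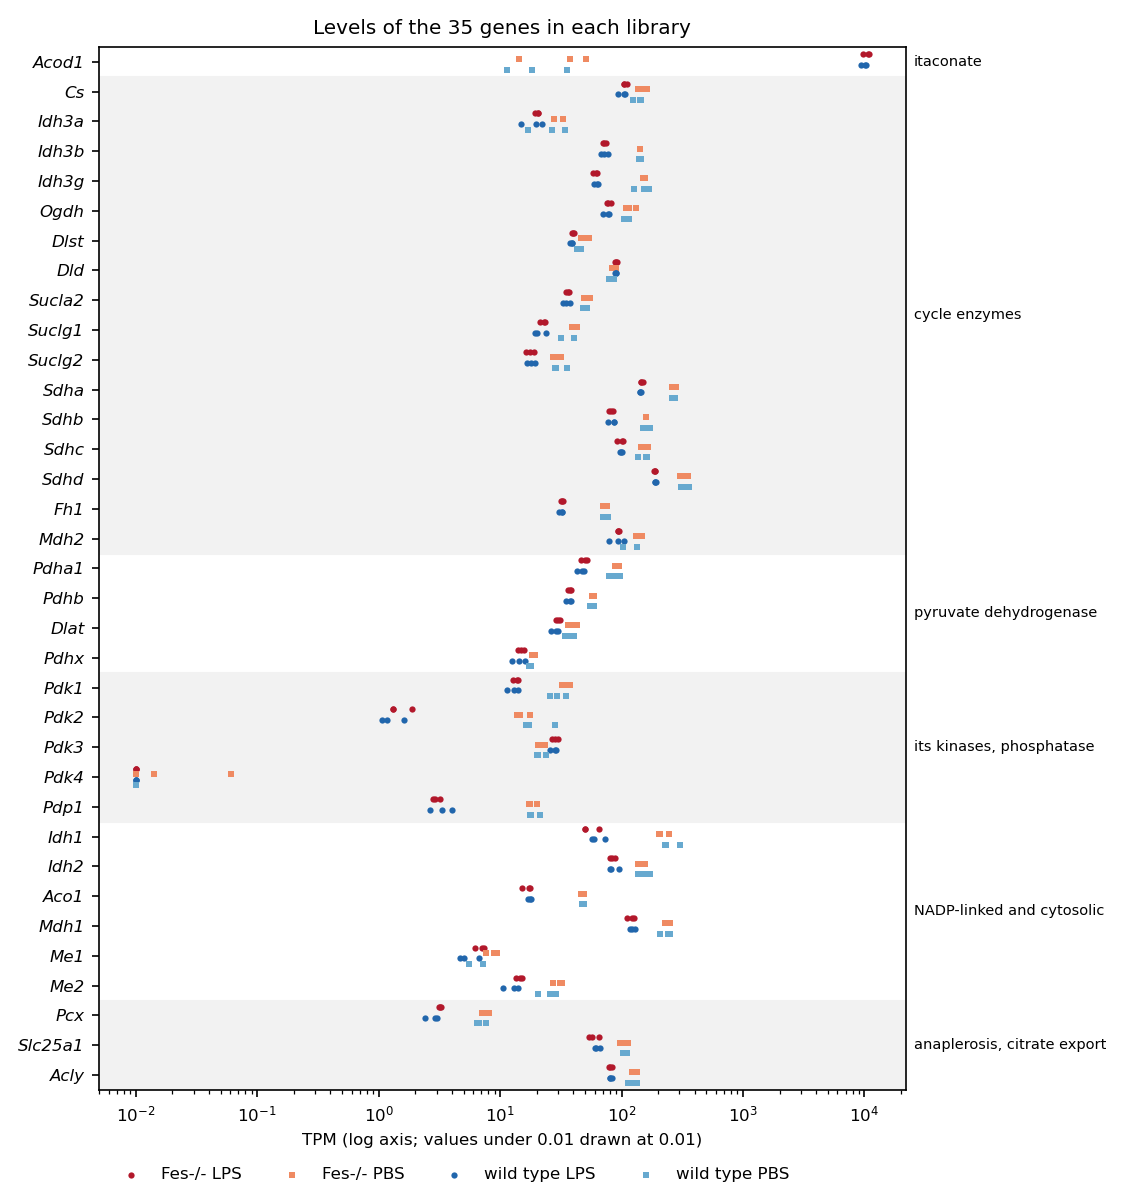
TPM (log axis) of the 35 genes in each of the 12 libraries, grouped by role, with Fes-/- points above wild-type points in each row. Acod1 is the member whose LPS libraries (9350 to 10921 TPM) lie far above its PBS libraries (11.5 to 51.2 TPM), and Pdk2 and Pdp1 are the ones farthest below theirs.

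**Figure D2:**
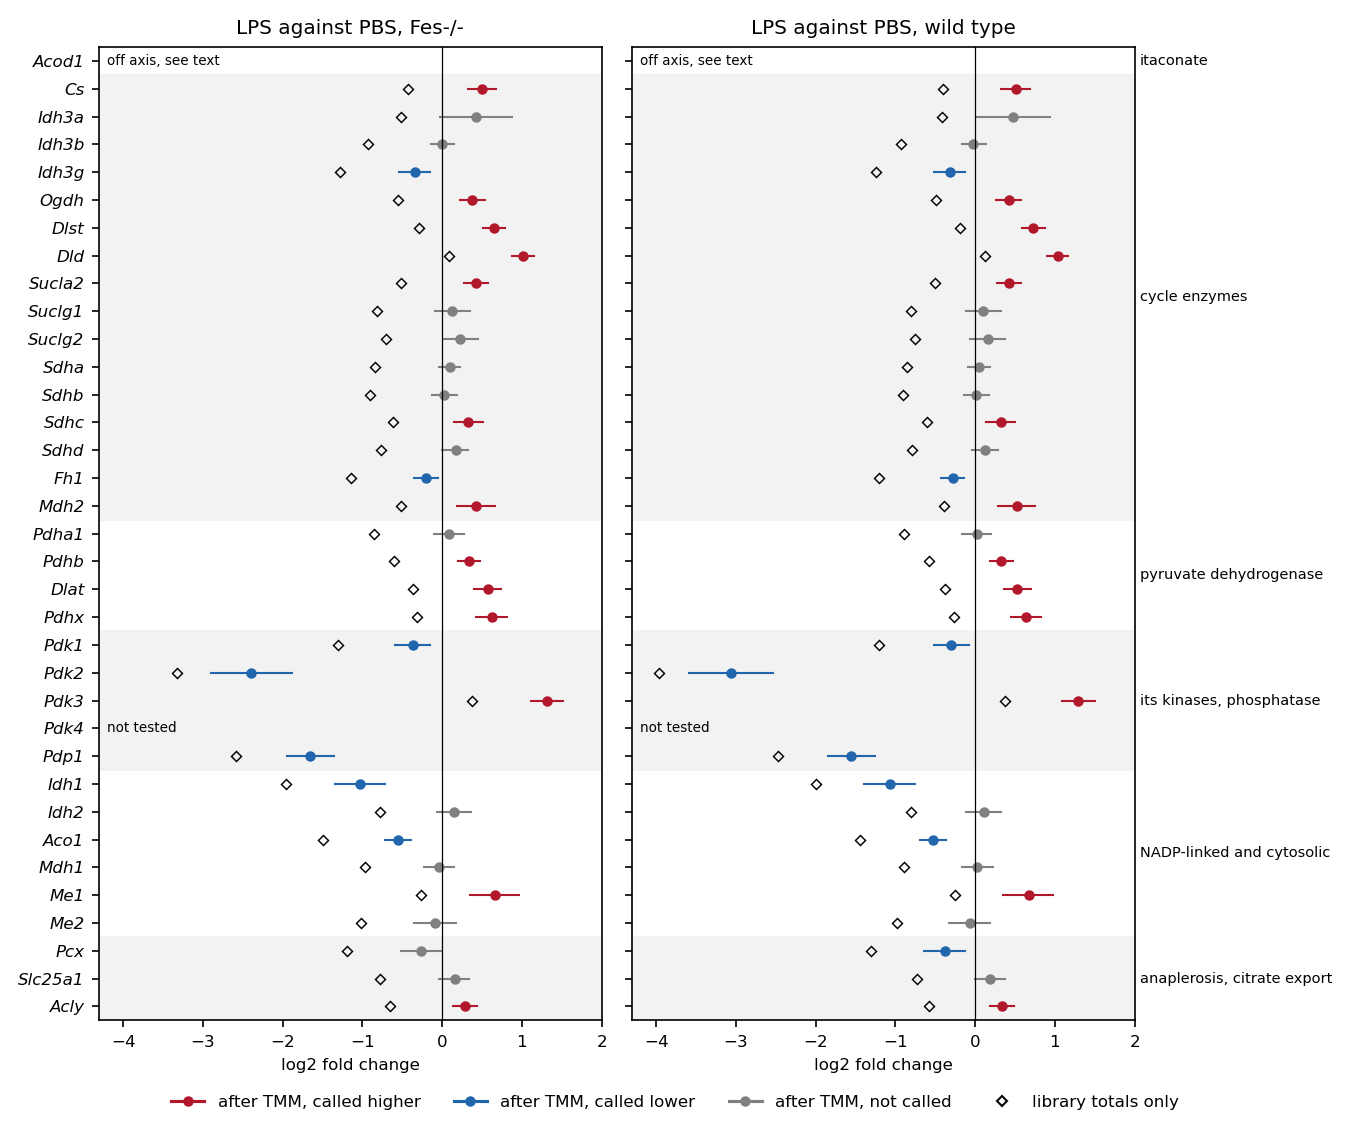
Log2 fold change of LPS against PBS in Fes-/- cells (left) and wild-type cells (right): filled points with 95% intervals are after TMM, open diamonds are on library totals. Acod1, off the axis, changed by 9.24 in Fes-/- and 9.77 in wild-type cells after TMM. Most points lie right of 0 after TMM while their diamonds lie left of it, and the diamonds lie to the left of the points of the same gene throughout.

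Acod1, on chromosome 14 (GRCm38 103046977 to 103056573, plus strand), was among the most abundant RNAs of the cell with LPS and ranked 25 (Fes-/-) and 28 (wild type) among the members by mean TPM with PBS. It had 10632, 10921 and 9694 TPM in Fes-/- LPS libraries, against 51.2, 37.5 and 14.4 TPM in Fes-/- PBS libraries. In wild-type cells it had 9350, 10172 and 10243 TPM with LPS, against 18.4, 11.5 and 35.5 TPM with PBS. Every LPS library was far above every PBS library, and the PBS libraries of 1 genotype differed among themselves several-fold. After TMM the log2 fold change was 9.24 ± 0.61 (SE) in Fes-/- cells, a 604-fold rise (edgeR adjusted p = 1.42e-07). In wild-type cells it was 9.77 ± 0.62, an 874-fold rise (edgeR adjusted p = 1.05e-07). On library totals the log2 fold changes were 8.3 in Fes-/- and 8.85 in wild-type cells.

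By mean TPM, Acod1 ranked 8 of all genes in Fes-/- LPS and 9 in wild-type LPS cells, against 4750 in Fes-/- PBS and 6207 in wild-type PBS cells. Its RNA made up 1.04% of all TPM in Fes-/- LPS and 0.992% in wild-type LPS libraries. The other 34 members together held 1801 ± 10.4 TPM in Fes-/- LPS against 3209 ± 14.5 TPM in Fes-/- PBS libraries, and 1799 ± 60.3 TPM in wild-type LPS against 3171 ± 112 TPM in wild-type PBS libraries (SD, n = 3 each).

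The PDH kinases changed in composition. Pdk3 had 29.7, 28.5 and 26.6 TPM in Fes-/- LPS libraries, against 20.6, 23.5 and 22.8 TPM in Fes-/- PBS libraries. Wild-type libraries had 28.1, 25.9 and 28.6 TPM with LPS, against 23.9, 20.6 and 20.1 TPM with PBS. The LPS libraries lay above the PBS libraries in both genotypes. After TMM Pdk3 rose by 1.32 ± 0.096 on the log2 scale in Fes-/- (edgeR adjusted p = 7.88e-09) and by 1.29 ± 0.096 in wild-type cells (edgeR adjusted p = 1e-08), and on library totals by 0.38 in each.

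Pdk2 moved the other way. It had 1.32, 1.32 and 1.87 TPM in Fes-/- LPS libraries, against 14.7, 13.8 and 17.5 TPM in Fes-/- PBS libraries. Wild-type libraries had 1.06, 1.61 and 1.18 TPM with LPS, against 16.3, 28.3 and 17.2 TPM with PBS. The groups did not come near each other, and wild-type PBS library 2 was the highest of all. After TMM Pdk2 fell by 2.39 ± 0.24 on the log2 scale in Fes-/- (edgeR adjusted p = 4.48e-07) and by 3.06 ± 0.24 in wild-type cells (edgeR adjusted p = 4.54e-08).

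Pdk1, known as a HIF-1 target, was lower by a smaller amount, with log2 fold changes after TMM of -0.37 in Fes-/- (edgeR adjusted p = 0.00495) and -0.3 in wild-type cells (edgeR adjusted p = 0.0192). The wild-type call was lost without wild-type PBS library 1 (-0.17, edgeR adjusted p = 0.126) and without wild-type LPS library 2 (-0.23, edgeR adjusted p = 0.085). Pdk4, known for its rise in fasting muscle and liver, had 1 and 4 counts in a pair of Fes-/- PBS libraries and 0 in the rest, where 0 allows up to 3 counts per library.

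Shares within a family do not depend on the scale. Pdk3 made up 65.3% ± 2.67 of the summed Pdk TPM in Fes-/- LPS against 30.9% ± 0.927 in Fes-/- PBS libraries, and 66.2% ± 0.873 in wild-type LPS against 29.8% ± 2.13 in wild-type PBS libraries (SD, n = 3 each). Pdk2 made up 3.48% ± 0.794 in Fes-/- LPS against 21.3% ± 2.81 in Fes-/- PBS libraries, and 3.11% ± 0.896 in wild-type LPS against 28.4% ± 8.42 in wild-type PBS libraries. Pdk1 made up 31.3% ± 2.01 in Fes-/- LPS against 47.8% ± 2.94 in Fes-/- PBS libraries, and 30.7% ± 1.56 in wild-type LPS against 41.8% ± 6.31 in wild-type PBS libraries. With LPS the most abundant kinase RNA was Pdk3 in each library, and with PBS it was Pdk1 in all but wild-type PBS library 2, where Pdk2 was above it.

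Pdp1, the catalytic subunit of a PDH phosphatase, fell in both genotypes. It had 2.91, 2.81 and 3.17 TPM in Fes-/- LPS libraries, against 20.1, 17.3 and 17.5 TPM in Fes-/- PBS libraries. Wild-type libraries had 2.63, 4.02 and 3.33 TPM with LPS, against 21.2, 17.5 and 17.8 TPM with PBS. The groups were widely separated. After TMM the log2 fold change was -1.65 ± 0.14 in Fes-/- (edgeR adjusted p = 3.99e-08) and -1.56 ± 0.14 in wild-type cells (edgeR adjusted p = 7.65e-08). The ratio of summed kinase to summed phosphatase TPM, Pdp2 included, was 6.17 ± 0.214 in Fes-/- LPS against 2.46 ± 0.218 in Fes-/- PBS libraries, and 5.66 ± 1.17 in wild-type LPS against 2.46 ± 0.119 in wild-type PBS libraries (SD, n = 3 each).

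**Figure D3:**
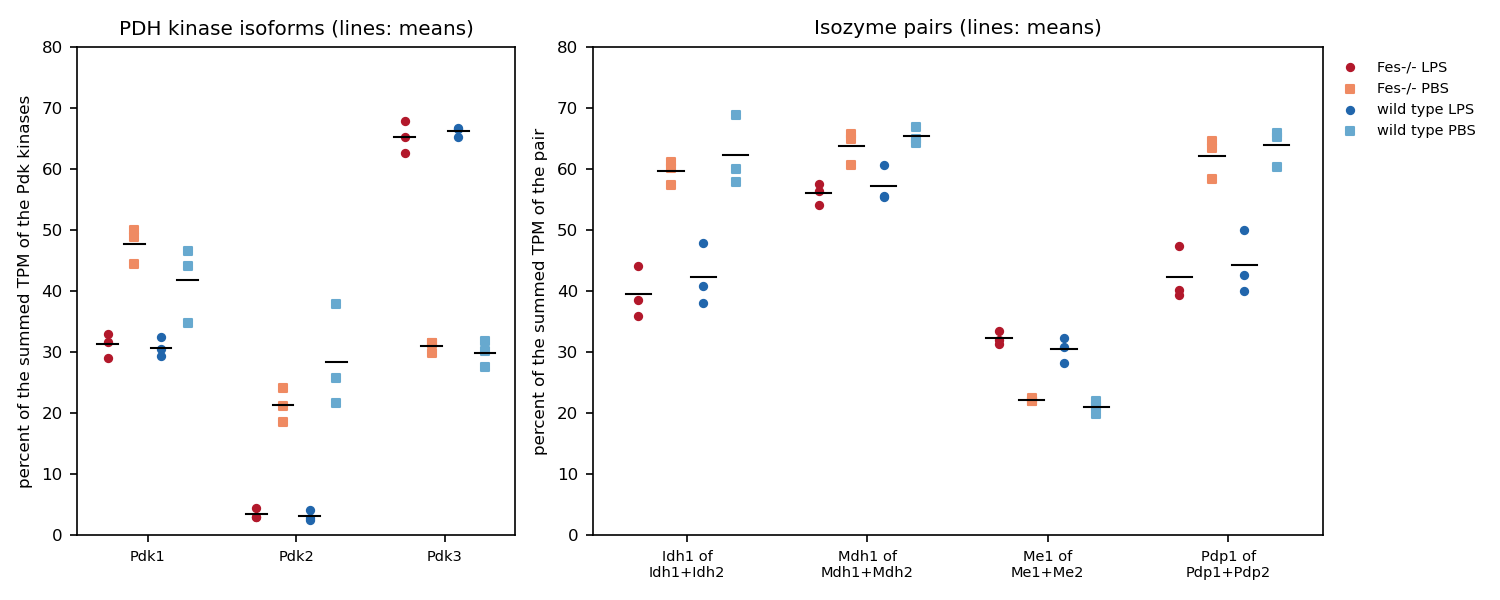
Percent of the summed TPM of the PDH kinases held by Pdk1, Pdk2 and Pdk3 (left) and percent of a pair's summed TPM held by its first named gene (right), 1 point per library with a line at each group's mean. Pdk3 lies between 62.6% and 67.9% in the LPS libraries and between 27.5% and 31.8% in the PBS libraries. In each pair the LPS and PBS points of the same genotype are apart. For Mdh1, 1 wild-type LPS library at 60.7% passed the lowest Fes-/- PBS library at 60.6%.

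The 250 bases before and 50 bases from the start of 31 of the 35 genes were in the RefSeq promoter table (GRCm38.p6). The promoters of the most induced member, of the kinase that rose and of the kinase that fell most are printed. Acod1 differs from both kinases in base composition, with 47% G or C bases against 68% in Pdk3 and 64.7% in Pdk2. Dld also had 47%. A link between base composition and the response to LPS was not tested. Capitals mark CpG dinucleotides and, in Acod1, a TATAAA. Acod1 lies at chr14:103046762-103047061 on the plus strand, Pdk3 at chrX:93832101-93832400 on the minus strand and Pdk2 at chr11:95041322-95041621 on the minus strand.
Acod1: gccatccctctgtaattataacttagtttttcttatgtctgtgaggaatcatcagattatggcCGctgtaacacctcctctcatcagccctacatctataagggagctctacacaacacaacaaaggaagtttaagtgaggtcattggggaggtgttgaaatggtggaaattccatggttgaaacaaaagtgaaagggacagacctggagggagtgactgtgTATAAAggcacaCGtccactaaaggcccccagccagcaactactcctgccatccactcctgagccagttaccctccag
Pdk3: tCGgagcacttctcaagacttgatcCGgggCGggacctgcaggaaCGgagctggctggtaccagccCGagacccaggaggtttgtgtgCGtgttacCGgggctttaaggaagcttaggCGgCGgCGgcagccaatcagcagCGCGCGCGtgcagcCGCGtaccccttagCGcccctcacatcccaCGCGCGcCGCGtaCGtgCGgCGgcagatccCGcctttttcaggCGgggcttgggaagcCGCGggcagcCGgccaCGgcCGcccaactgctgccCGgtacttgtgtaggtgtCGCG
Pdk2: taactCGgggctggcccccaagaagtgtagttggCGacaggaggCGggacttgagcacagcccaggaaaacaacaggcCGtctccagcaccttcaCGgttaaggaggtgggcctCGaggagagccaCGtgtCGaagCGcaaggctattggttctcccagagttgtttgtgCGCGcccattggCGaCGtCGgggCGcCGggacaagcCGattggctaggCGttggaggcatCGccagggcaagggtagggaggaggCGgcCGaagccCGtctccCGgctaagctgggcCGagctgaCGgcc
Acod1 had 2 CpG in this window, Pdk3 had 35 and Pdk2 had 25. The 30 members other than Acod1 had 12 to 35, with a median of 22, and all 32851 promoters of the table had a median of 7. Acod1 was also the only one of the 31 with a TATAAA on either strand, which 13.6% of all promoters hold. This TATAAA lay 28 to 23 bases before the RefSeq start. The GENCODE start of the gene, 103046977, lies before the TATAAA, so its place depends on the start chosen. A C/EBP-type TTGCNNAA was found in 3 of the 31 promoters (10.8% of all) and an AP-1-type TGANTCA in 1 (7.81% of all), with both strands searched. Such matches are letters in a window and not sites of binding.

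Among the subunits of the PDH complex, Dld, the shared dihydrolipoamide dehydrogenase, stood out. It had 87.9, 90.9 and 89.4 TPM in Fes-/- LPS libraries, against 89.8, 88.1 and 82.7 TPM in Fes-/- PBS libraries. In wild-type cells it had 89.3, 87.7 and 90.2 TPM with LPS, against 85.9, 78.2 and 86 TPM with PBS. In TPM the groups overlapped in Fes-/- cells and were close in wild-type cells. After TMM Dld rose by 1.02 ± 0.064 on the log2 scale in Fes-/- (edgeR adjusted p = 1.42e-09) and by 1.04 ± 0.064 in wild-type cells (edgeR adjusted p = 1.18e-09), while on library totals the values were 0.084 and 0.12 and neither was called. Within the summed TPM of Pdha1, Pdhb, Dlat, Dld and Pdhx, Dld made up 40.4% ± 0.523 in Fes-/- LPS against 29.3% ± 0.204 in Fes-/- PBS libraries, and 41.5% ± 1.3 in wild-type LPS against 29.5% ± 0.626 in wild-type PBS libraries (SD, n = 3 each).

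After TMM the other E1 to E3-binding subunits changed less. Pdhx, the E3-binding protein, had log2 fold changes after TMM of 0.62 in Fes-/- and 0.64 in wild-type cells, Dlat (E2) of 0.57 and 0.53, and Pdhb (E1 beta) of 0.34 and 0.33, all called higher, whereas on library totals each was called lower at -0.27 to -0.6. Pdha1 (E1 alpha) was not called after TMM, at 0.084 in Fes-/- and 0.023 in wild-type cells. On library totals Pdha1 was called lower, at -0.85 in Fes-/- and -0.89 in wild-type cells. Its share of the 5 subunits was 22.4% ± 0.805 in Fes-/- LPS against 31% ± 0.736 in Fes-/- PBS libraries, and 21.6% ± 0.745 in wild-type LPS against 30.9% ± 1.67 in wild-type PBS libraries (SD, n = 3 each). The Pdha1 values are uncertain because 603 bases, 16.1% of its exon length, overlap the opposite-strand gene Map3k15, whose counts reached 16.4% of those of Pdha1, and whether reads were counted by strand is not stated.

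In the cycle itself, citrate synthase (Cs), which joins acetyl groups to oxaloacetate, had log2 fold changes of 0.5 in Fes-/- and 0.51 in wild-type cells, against -0.43 and -0.4 on library totals. Ogdh and Dlst, the E1 and E2 of 2-oxoglutarate dehydrogenase, had 0.38 and 0.65 in Fes-/- and 0.42 and 0.73 in wild-type cells, against -0.55 and -0.29 in Fes-/- and -0.49 and -0.19 in wild-type cells on library totals. Sucla2, the ADP-forming subunit of succinyl-CoA synthetase, had 0.43 in Fes-/- and 0.42 in wild-type cells, against -0.51 and -0.5 on library totals. Mdh2, the mitochondrial malate dehydrogenase, had 0.43 in Fes-/- and 0.52 in wild-type cells, against -0.51 and -0.39 on library totals. Each of these values was called, higher after TMM and lower on library totals.

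Fh1, fumarase, and Idh3g, a regulatory subunit of the NAD-linked isocitrate dehydrogenase, were the cycle enzymes called lower after TMM. Idh3g changed by -0.34 in Fes-/- (edgeR adjusted p = 0.0035) and by -0.32 in wild-type cells (edgeR adjusted p = 0.00527). Fh1 changed by -0.2 in Fes-/- (edgeR adjusted p = 0.017) and by -0.28 in wild-type cells (edgeR adjusted p = 0.00193). The Fes-/- call of Fh1 was lost without Fes-/- PBS library 3 (-0.14, edgeR adjusted p = 0.111) and without Fes-/- LPS library 3 (-0.18, edgeR adjusted p = 0.0614). The ratio of Cs to Fh1 TPM, which no scaling alters, was 3.26 ± 0.0687 in Fes-/- LPS against 2.01 ± 0.201 in Fes-/- PBS libraries, and 3.19 ± 0.118 in wild-type LPS against 1.85 ± 0.228 in wild-type PBS libraries (SD, n = 3 each).

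Succinate dehydrogenase, the enzyme that itaconate inhibits and the one shared with the respiratory chain, has 4 subunits. Sdhd was the most abundant member in PBS cells, with 302 to 351 TPM in Fes-/- and 311 to 359 TPM in wild-type libraries, and had 184 to 190 TPM in Fes-/- LPS and 189 to 192 TPM in wild-type LPS libraries. It made up 36% to 36.9% of their summed TPM in Fes-/- LPS against 34.5% to 36.8% in Fes-/- PBS libraries, and 36.4% to 37.5% in wild-type LPS against 36.3% to 37.2% in wild-type PBS libraries, ranges that overlap. Sdhc made up 18.5% to 19.7% in Fes-/- LPS against 16.6% to 17.2% in Fes-/- PBS libraries, and 19% to 19.2% in wild-type LPS against 15.9% to 17.5% in wild-type PBS libraries. Sdhb made up 15.8% to 16.2% in Fes-/- LPS against 16.5% to 18.1% in Fes-/- PBS libraries, and 15.3% to 16.7% in wild-type LPS against 17.1% to 17.6% in wild-type PBS libraries. The LPS shares were thus all above the PBS shares for Sdhc and all below them for Sdhb within each genotype. Sdhc was the subunit called higher in the main fit, edgeR after TMM, at 0.33 in Fes-/- and 0.32 in wild-type cells. On library totals it was called lower, at -0.61 and -0.6. Sdha, Sdhb and Sdhd were not called in the main fit, with log2 fold changes of 0.016 to 0.17 over both genotypes. In Fes-/- cells Sdhd was called higher with RLE factors (0.22, edgeR adjusted p = 0.0197) and with DESeq2 (0.22, DESeq2 adjusted p = 0.0142). Sdha was called higher there with DESeq2 (0.14, DESeq2 adjusted p = 0.0131). On library totals in Fes-/- cells they were called lower, Sdhd at -0.77 and Sdha at -0.84.

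Idh3a, Idh3b, Suclg1 and Suclg2 were not called in the main fit in either genotype. Idh3a in wild-type cells and Suclg2 in Fes-/- cells were called higher with RLE factors and with DESeq2. A fit with the replicate number as a block paired same-numbered LPS and PBS libraries within each genotype. In that fit Idh3a (0.52, edgeR adjusted p = 6.02e-05), Suclg2 (0.17, edgeR adjusted p = 0.0426) and Slc25a1 (0.18, edgeR adjusted p = 0.0152) were also called higher in wild-type cells. With these genes 17 members were higher and 8 lower in wild-type cells, where 35.4% and 39.6% of all genes were called in that fit. On library totals the values of these genes in wild-type cells were below 0, at -0.42 for Idh3a, -0.75 for Suclg2 and -0.73 for Slc25a1.

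Idh1, the cytosolic NADP-linked isocitrate dehydrogenase, had 50.2, 49.7 and 65.3 TPM in Fes-/- LPS libraries, against 207, 205 and 246 TPM in Fes-/- PBS libraries. In wild-type cells it had 58.8, 73 and 57 TPM with LPS, against 233, 303 and 229 TPM with PBS. The groups did not overlap, and again wild-type PBS library 2 was the highest. After TMM Idh1 fell by 1.03 ± 0.15 on the log2 scale in Fes-/- (edgeR adjusted p = 2.33e-05) and by 1.07 ± 0.15 in wild-type cells (edgeR adjusted p = 1.48e-05). Its mitochondrial counterpart Idh2 was not called after TMM, at 0.15 in Fes-/- and 0.11 in wild-type cells, against -0.78 and -0.8 on library totals, where it was called lower. Idh1 made up 39.5% ± 4.17 of the pair's TPM in Fes-/- LPS against 59.6% ± 1.96 in Fes-/- PBS libraries, and 42.3% ± 4.96 in wild-type LPS against 62.2% ± 5.87 in wild-type PBS libraries (SD, n = 3 each).

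Aco1, the cytosolic aconitase that doubles as an iron-regulated RNA-binding protein, changed by -0.55 in Fes-/- (edgeR adjusted p = 7.73e-06) and by -0.53 in wild-type cells (edgeR adjusted p = 1.18e-05) after TMM. On library totals its log2 fold changes were -1.49 in Fes-/- and -1.44 in wild-type cells. Mdh1, the cytosolic malate dehydrogenase, was not called after TMM, at -0.04 in Fes-/- and 0.024 in wild-type cells. Its share of the malate dehydrogenase pair was 56% ± 1.77 in Fes-/- LPS against 63.8% ± 2.77 in Fes-/- PBS libraries, and 57.3% ± 3 in wild-type LPS against 65.4% ± 1.41 in wild-type PBS libraries (SD, n = 3 each).

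The malic enzymes turn malate into pyruvate. Me1, the cytosolic NADP-linked form, had log2 fold changes after TMM of 0.66 ± 0.15 in Fes-/- (edgeR adjusted p = 0.000872) and 0.67 ± 0.15 in wild-type cells (edgeR adjusted p = 0.000934), against -0.27 and -0.25 on library totals, where it was not called. Me2, a mitochondrial form, was not called after TMM, at -0.09 in Fes-/- and -0.067 in wild-type cells. Me1 made up 32.3% ± 1.15 of the pair's TPM in Fes-/- LPS against 22.1% ± 0.248 in Fes-/- PBS libraries, and 30.4% ± 2.04 in wild-type LPS against 20.9% ± 1.01 in wild-type PBS libraries (SD, n = 3 each).

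For citrate leaving the cycle, Acly, the ATP-citrate lyase that makes cytosolic acetyl-CoA, had log2 fold changes after TMM of 0.29 in Fes-/- (edgeR adjusted p = 0.00201) and 0.34 in wild-type cells (edgeR adjusted p = 0.000606), and was called lower on library totals at -0.65 and -0.58. Slc25a1, the mitochondrial citrate carrier, had 0.16 in Fes-/- and 0.18 in wild-type cells after TMM and was not called in the main fit. It was called higher in both genotypes with the replicate block, with RLE factors and with DESeq2. With RLE factors and with DESeq2 alike it was at 0.21 in Fes-/- and 0.23 in wild-type cells. On library totals it was called lower, at -0.78 in Fes-/- and -0.73 in wild-type cells. Pcx, pyruvate carboxylase, which makes oxaloacetate from pyruvate, was called lower in wild-type cells at -0.38 (edgeR adjusted p = 0.00926) and not in Fes-/- cells at -0.26 (edgeR adjusted p = 0.0588). The wild-type call was lost without wild-type PBS library 3 (-0.29, edgeR adjusted p = 0.0547), and the difference between the genotypes, 0.12 ± 0.17, was not called (edgeR adjusted p = 1).

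The genotype comparisons gave no call in the whole set. Of 34 members, 0 were called between Fes-/- and wild-type cells under LPS, where 17 of 15801 genes (0.108%) were called, and 0 under PBS, where 13 genes (0.0823%) were called, by edgeR's quasi-likelihood test. DESeq2 also called 0 members, and of all genes it called 26 higher and 11 lower under LPS and 15 higher and 18 lower under PBS. At an unadjusted p under 0.05, 1 member passed under LPS, where 6.52% of all genes did, and 2 under PBS, where 3.83% did. The 95% interval of the difference lay within 1.5-fold for 31 of 34 members under LPS, against 58.6% of all genes, and for 30 of 34 under PBS, against 61.8% of all genes. It lay within 2-fold for 33 of 34 members under each treatment, the exception being Acod1.

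Under LPS, Acod1 differed between the genotypes by 0.057 ± 0.42 on the log2 scale, with a 95% interval of -0.89 to 1. Its CPM after TMM was 11500, 11800 and 10300 in Fes-/- LPS libraries, against 10100, 11100 and 11100 in wild-type LPS libraries. The fit shares its spread over all 4 groups, and the PBS libraries ran from 6.45 to 27.3 CPM. The interval under LPS is therefore not a measure of the spread among the LPS libraries alone. Under PBS the difference was 0.59 ± 0.44, with an interval of -0.39 to 1.56, and the PBS libraries of the genotypes overlapped. Without the filter on low counts the PBS difference was called (0.58, edgeR adjusted p = 0.000182), while leaving out a single PBS library gave log2 differences between 0.18 and 1.13 in the filtered fit.

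Me1 had the smallest p under LPS. Its CPM after TMM was 11.7, 11.3 and 9.64 in Fes-/- LPS libraries, against 8.03, 7.51 and 10.6 in wild-type LPS libraries. With PBS it was 6.9, 7.33 and 6.42 in Fes-/- PBS libraries, against 5.96, 4.55 and 5.99 in wild-type PBS libraries. The groups overlapped under LPS and did not under PBS. The log2 difference was 0.32 ± 0.15 under LPS (edgeR adjusted p = 0.764) and 0.32 ± 0.15 under PBS (edgeR adjusted p = 0.975), and under PBS it was 0.2 without wild-type PBS library 2.

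Me2 and Pcx came next under LPS. Me2 was at 43.7, 45.5 and 40 CPM after TMM in Fes-/- LPS libraries, against 38.6, 31.9 and 42.2 in wild-type LPS libraries, a log2 difference of 0.2 ± 0.12 (edgeR adjusted p = 0.833). Under PBS it was at 46.4, 48 and 43.1 in Fes-/- PBS libraries, against 45.4, 32.1 and 40.4 in wild-type PBS libraries, a difference of 0.22 ± 0.12 (edgeR adjusted p = 0.975). The Me2 libraries of the genotypes overlapped under both treatments. Pcx was at 6.14, 6.23 and 6.28 CPM after TMM in Fes-/- LPS libraries, against 4.72, 5.73 and 5.91 in wild-type LPS libraries, a difference of 0.19 ± 0.12 (edgeR adjusted p = 0.843). It was the member whose Fes-/- LPS libraries all lay above the wild-type LPS libraries, as 5.78% of all genes did, and 0 members lay below, where 5.63% of all genes did.

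Under PBS, Pdk2 had the smallest p. It was at 9.42, 8.89 and 12 CPM after TMM in Fes-/- PBS libraries, against 11.1, 19.2 and 11.7 in wild-type PBS libraries, a log2 difference of -0.47 ± 0.21 (edgeR adjusted p = 0.975). The groups overlapped, and the difference was -0.19 without wild-type PBS library 2. Dlst and Me1 were the members whose Fes-/- PBS libraries all lay above the wild-type PBS libraries, as 3.03% of all genes did, and 0 lay below, where 3.8% of all genes did. Dlst was at 98.5, 105 and 97.2 CPM after TMM in Fes-/- PBS libraries, against 96.7, 87.4 and 93.3 in wild-type PBS libraries, and at 161, 155 and 155 in Fes-/- LPS libraries, against 155, 151 and 152 in wild-type LPS libraries.

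Idh2 lies on chromosome 7 (GRCm38 80094846 to 80115392), 283 kb from Fes. It differed by -0.049 ± 0.1 under LPS and by -0.092 ± 0.1 under PBS on the log2 scale and was not called.

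**Figure D4:**
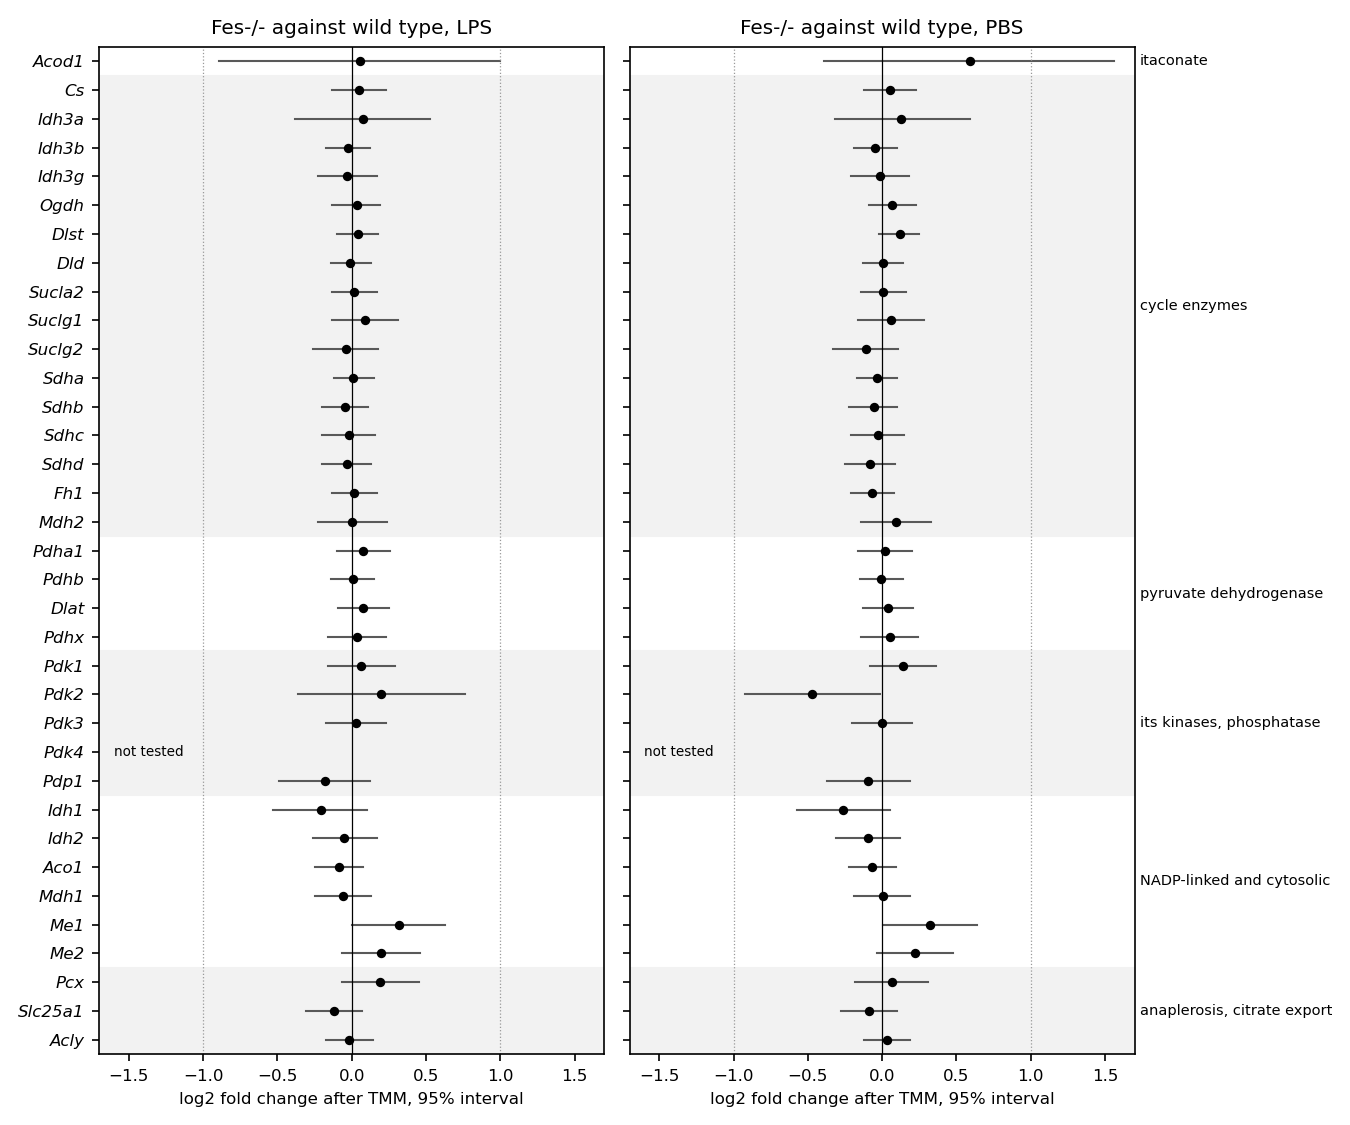
Log2 fold change of Fes-/- against wild-type cells after TMM with 95% intervals, under LPS (left) and PBS (right), for the 34 members tested. Dotted lines mark a 2-fold difference, and the interval of Acod1 is the only one to reach them.

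The response to LPS was compared between the genotypes directly. Of 34 members 0 differed in their LPS effect by edgeR's quasi-likelihood test after adjustment, where 3 of all genes (0.019%) were called, and 0 did at an unadjusted p under 0.05, where 2.94% of all genes did. DESeq2 also called 0. The interval of the difference lay within 1.5-fold for 31 of 34 members, against 50.2% of all genes. The smallest p was that of Pdk2, whose fall was smaller in Fes-/- cells by 0.67 ± 0.33 on the log2 scale (edgeR adjusted p = 1), and by 0.38 without wild-type PBS library 2. For Acod1 the difference of the effects was -0.53 ± 0.61 and for Dlst -0.077 ± 0.092 (edgeR adjusted p = 1 for both).

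Of 38 other genes of the pathway (carriers, lipoate attachment, succinate dehydrogenase assembly, glutamine entry and side enzymes), 35 were tested. After TMM 10 were called higher and 17 lower with LPS in each genotype, where 34.3% and 38.9% of all genes in Fes-/- and 34.6% and 38.8% in wild-type cells were called. On library totals 4 were called higher and 28 lower in each, where 15.9% and 70% of all genes in Fes-/- and 16.3% and 68.5% in wild-type cells were called. Slc25a22, a mitochondrial glutamate carrier, had the largest rise. It had 126, 126 and 133 TPM in Fes-/- LPS libraries, against 20.8, 22.5 and 15.6 TPM in Fes-/- PBS libraries, and 120, 138 and 131 TPM in wild-type LPS libraries, against 17.8, 14.4 and 18 TPM in wild-type PBS libraries. The log2 fold changes after TMM were 3.69 in Fes-/- and 3.89 in wild-type cells, and 2.76 and 2.98 on library totals. Slc13a3, a carrier of dicarboxylates, Slc25a12, an aspartate-glutamate carrier, and Rab32, a small GTPase tied to the delivery of itaconate to bacteria, rose by 1.49 to 1.82 after TMM and by 0.55 to 0.91 on library totals.

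Among those that fell were Lipt2 and Lipt1, enzymes of the route that supplies the lipoate cofactor of the E2 subunits. Lipt2 was at 0.0396 to 0.0942 TPM in Fes-/- LPS against 6.18 to 6.67 TPM in Fes-/- PBS libraries, and at 0.0606 to 0.339 TPM in wild-type LPS against 3.55 to 7.54 TPM in wild-type PBS libraries. After TMM it changed by -5.55 in Fes-/- and by -3.73 in wild-type cells, and Lipt1 by -2.39 and -1.99. Lipt2 had only 2, 3 and 3 counts in Fes-/- LPS and 6, 11 and 2 counts in wild-type LPS libraries. The size of its fall in each genotype is therefore uncertain. Pck2, the mitochondrial PEP carboxykinase, changed by -2.3 and -2.49, Acss1, the mitochondrial acetyl-CoA synthetase, by -1.84 and -1.79, and Sdhaf1, a succinate dehydrogenase assembly factor, by -1.88 and -1.6, and all were also lower on library totals. Between the genotypes 0 of the 35 were called under either treatment by edgeR's quasi-likelihood test, and 1 passed an unadjusted p under 0.05 under each.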

How the data were processed

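Per the labels' protocols, poly-A RNA of 12 macrophage cultures was sequenced, and per the submitters' processing notes DESeq2 1.34.0 and R 4.1.12 were used along with Picard 2.9.0 and STAR 2.7.8a, and GRCm38 and mm9 are listed as builds without a role. How reads were counted is not stated. The authors deposited whole-number counts per gene and, separately, TPM values. Counts divided by TPM gave the GENCODE M21 (GRCm38) exon length within 1% for 98.6% of 10303 genes, so positions are from that annotation.

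Counts were fitted with edgeR 4.0.16 in R 4.3.3: filterByExpr, TMM factors, 1 mean per group over 12 libraries with 8 residual degrees of freedom, robust quasi-likelihood tests, Benjamini-Hochberg adjustment over 15801 genes and a threshold of 0.05. SE are standard errors of log2 fold changes. TPM shares, ratios and sums have no test. DESeq2 1.42.0, limma 3.58.1 on log2(TPM + 1) and log2(TPM + 0.1), other scalings and filters, and leaving out each library were alternatives. BLAST 2.17.0 searched for copies, and the pseudogene copies of Me1, Pdhb and Suclg2 held at most 0.839% of the member's counts. The series' design text names 3 mice per genotype, and the labels give all libraries 1 batch date. Same-numbered LPS and PBS libraries deviated together in wild-type cells, with correlations of 0.14, 0.17 and 0.14, against -0.098 to -0.038 for differently numbered ones. In Fes-/- cells the same-numbered correlations were 0.068, 0.089 and 0.19, against -0.13 to 0.06 for differently numbered ones. The same-numbered values were thus the highest in both genotypes. The labels do not tie a number to a mouse, and the main fit used no pairing.

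Members and lists were chosen with earlier results of these data known. The genes given in every library are Acod1, members changed by a log2 of at least 1 in both genotypes and the 3 with the smallest p in each genotype comparison and in the difference of the LPS effects. Other members are named when called, and other genes of the pathway by the size of their averaged change. Of the other genes of the pathway named by size, 1 is not reported here. The TPM ratios were chosen after values were seen.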

Additional observations from a re-analysis of the deposited data

How the results depend on the processing

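The scale of the libraries was the choice that moved the results most. On library totals, log2(TPM + 1) and log2(TPM + 0.1) alike, 2 members were called higher and 30 lower in Fes-/- cells and 2 higher and 29 lower in wild-type cells. In that order of scales the reversed log2 fold changes in Fes-/- cells were -0.61, -0.64 and -0.65 for Sdhc, -0.31, -0.34 and -0.35 for Pdhx, -0.51, -0.54 and -0.55 for Mdh2, -0.43, -0.47 and -0.47 for Cs, -0.6, -0.62 and -0.64 for Pdhb, -0.51, -0.54 and -0.55 for Sucla2, -0.37, -0.4 and -0.41 for Dlat, -0.27, -0.28 and -0.32 for Me1, -0.55, -0.58 and -0.59 for Ogdh, -0.65, -0.68 and -0.69 for Acly, and -0.29, -0.32 and -0.33 for Dlst. In wild-type cells they were -0.6, -0.62 and -0.62 for Sdhc, -0.27, -0.29 and -0.31 for Pdhx, -0.39, -0.42 and -0.42 for Mdh2, -0.4, -0.43 and -0.43 for Cs, -0.58, -0.6 and -0.61 for Pdhb, -0.5, -0.51 and -0.52 for Sucla2, -0.38, -0.4 and -0.41 for Dlat, -0.25, -0.24 and -0.28 for Me1, -0.49, -0.52 and -0.52 for Ogdh, -0.58, -0.6 and -0.6 for Acly, and -0.19, -0.21 and -0.21 for Dlst. Without the filter on low counts 1 member, Acod1, was called higher under PBS between the genotypes, and the cause was not tested. Idh2 between the genotypes under LPS ran from -0.095 without Fes-/- LPS library 2 to 0.035 without wild-type LPS library 1, a change of sign.

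Leaving out each library in turn gave 14 to 17 members called higher and 6 to 8 lower in Fes-/- cells, 14 to 16 higher and 7 to 8 lower in wild-type cells, and 0 in each genotype comparison and in the difference of the effects. With the replicate block 17 were called higher and 8 lower in Fes-/- cells, where 5599 and 6278 of 15801 genes were. Idh3a, Suclg2, Slc25a1 and Pcx were the members added. Between the genotypes the block was the replicate number shared across both genotypes, and it changed no call of a member. Same-numbered libraries of different genotypes come from different mice. Their correlations were -0.15 to -0.043 with LPS and -0.16 to 0.016 with PBS. The unchanged calls under this block are therefore no check of pairing. With RLE factors Fh1 in Fes-/- cells was at -0.15 (edgeR adjusted p = 0.0577). With LPS, RLE factors gave 17 members higher and 6 lower in Fes-/- cells, where 5696 and 5858 of 15801 genes were called. In wild-type cells it was 16 and 8, where 5728 and 5878 genes were called. DESeq2 called 19 and 7 in Fes-/- cells (5734 and 5906 genes) and 16 and 8 in wild-type cells (5780 and 5932 genes). Both settings added Suclg2, Sdhd and Slc25a1 in Fes-/- cells and Idh3a and Slc25a1 in wild-type cells. DESeq2 also added Idh3a and Sdha in Fes-/- cells. Over all genes, edgeR called 17 between the genotypes under LPS and 13 under PBS, while DESeq2 called 26 higher and 11 lower under LPS and 15 higher and 18 lower under PBS.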
